A study of Mus musculus with 24 samples.

Results

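The genes described here are 10 immediate-early transcription factors: *Fos*, *Fosb* and *Fosl2* of the Fos family, *Jun*, *Junb* and *Jund* of the Jun family, the zinc finger genes *Egr1*, *Egr2* and *Egr3*, and *Atf3*. They were chosen by name, and a probe was assigned to a gene where the gene name on the array was equal to its symbol. This rule found 9 of the 10 genes among 21597 gene symbols on the array, and all 9 were among the 17347 genes with enough signal to be tested. *Jund* was present only under its older array name, Jund1, and its values are given apart from the counts of members.

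The cells came from C57BL/6 mice and were of 3 kinds: thioglycollate-elicited peritoneal macrophages (EPM), collected by lavage and selected by adherence, bone marrow-derived macrophages (BMDM), and resting splenic B cells, obtained by removing cells that carry CD43 or CD11b. Cells received Kdo2 lipid A (KLA), a lipid A that acts as an agonist of the receptor TLR4, and mRNA was measured after 1 h and 12 h. The 12 h control of each cell type and the 1 h control of BMDM were treated with the solvent DMSO. The early control of EPM and of B cells is labelled untreated, with no time, and served here as the control for 1 h.

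Expression was measured on 12 2-colour arrays of 1 condition each, with a biological replicate in each of the 2 dye channels, so that every condition has 2 values and each cell type lies on 1 slide of 4 arrays. Effects of the array cannot be told apart from those of its condition, nor effects of the slide from those of the cell type. All levels are log2 intensities of a probe and all changes are log2 differences of KLA minus the control named, each with its standard error (SE) and a Benjamini-Hochberg adjusted p over all genes tested. A gene is called where that p is below 0.05. The adjusted p weighs a change against the spread between the channels of an array. A fit to array means, in which the 2 control arrays of a cell type stand as replicates, is given beside the main results. Its changes are taken against the mean of the early and 12 h controls. Shifts between those controls, in any cell type, enter its spread, so a missing call there does not show that a change is absent.

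Immediate-early genes are transcribed within minutes of a signal without new protein synthesis, largely through MAP kinases that act on factors already bound at their promoters. Fos and Jun proteins pair through leucine zippers to form AP-1, EGR proteins bind GC-rich elements, and ATF3 is a zipper protein of the ATF/CREB family known for holding back inflammatory genes in macrophages. In macrophages, TLR4 signalling is a classical inducer of these genes, and their mRNAs are typically short-lived.

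Promoter sequences are shown for *Fos*, *Egr2* and *Atf3*, the members whose KLA responses differed between EPM and BMDM at both 1 h and 12 h in the data below. RefSeq start sites on GRCm38.p6 were matched for 8 of the 10 genes, all but *Egr1* and *Egr3*. The 250 bases before the start site were searched on both strands for the CArG box bound by SRF, the κB site bound by NF-κB and 3 short motifs, and matches are in capitals. The core of a cAMP response element, the site of CREB and ATF factors, was spelled TGACGT. The AP-1 site was spelled TGACTCA. The TATA box was spelled TATAAA. The letters were chosen with the sequences in view. *Egr2* has 5 annotated windows, and the one printed starts at a site that is annotated again 1 base away.
Fos, chr12:85473640-85473889, plus strand: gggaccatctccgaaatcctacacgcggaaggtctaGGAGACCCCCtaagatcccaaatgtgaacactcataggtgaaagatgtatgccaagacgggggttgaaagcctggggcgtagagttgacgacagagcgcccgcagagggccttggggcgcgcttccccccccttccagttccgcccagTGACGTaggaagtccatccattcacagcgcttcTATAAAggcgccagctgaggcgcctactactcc
Egr2, chr10:67537619-67537868, plus strand: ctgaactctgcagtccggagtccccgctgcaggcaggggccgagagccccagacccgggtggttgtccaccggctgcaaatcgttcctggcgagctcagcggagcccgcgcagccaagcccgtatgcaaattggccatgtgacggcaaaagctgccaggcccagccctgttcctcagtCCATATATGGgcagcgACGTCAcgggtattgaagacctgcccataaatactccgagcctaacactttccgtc
Atf3, chr1:191183334-191183583, minus strand: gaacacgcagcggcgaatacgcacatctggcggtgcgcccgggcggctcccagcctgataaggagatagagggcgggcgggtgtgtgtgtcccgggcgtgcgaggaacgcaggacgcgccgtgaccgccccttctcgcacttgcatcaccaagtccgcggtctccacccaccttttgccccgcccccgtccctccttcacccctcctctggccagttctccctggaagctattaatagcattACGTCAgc
The core TGACGT, on either strand, was present in all 3 printed windows and in no other of the 8 genes. It lay 66 to 61 bases before the start of *Fos*, 56 to 51 before that of *Egr2* and 8 to 3 before that of *Atf3*. The *Egr2* windows starting at chr10:67535249 and chr10:67537316, not printed, did not hold it. *Fosb* and *Fosl2*, whose responses differed at 1 h, and *Jun*, whose response differed at 12 h, were among the genes without it. It was present in 6.47% of 32851 mouse promoter windows of this length. Within these 250 bases, *Egr2* alone of the 8 held a CArG box, as did 1.47% of all windows. *Fos* alone held TATAAA, as did 12.4%. The shares count single windows, while *Egr2* was searched in several, and bases further from the start were not searched. Letters matching the κB site were present in a window of 4 of the 8 genes and in 7.25% of all windows, and TGACTCA in none of the 8 and in 4.46% of all. The printed genes were picked by their responses and the letters with the sequences in view, so the split of genes by TGACGT was not a test. Spellings that differ in a base were not counted, such as TGACAT in the *Jun* window and TGACGC in those of *Fosb* and *Junb*. A match is a description of the sequence only, and a link to the responses was not tested.

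Between 57.4% and 65.0% of probes were well above background in each channel, and no spot of a gene probe was saturated. The 10 macrophage markers tested, *Csf1r* and *Cd68* among them, were all detected in every EPM and BMDM condition. In B cells 5 or 6 of the 10 were detected, with a summed intensity of 2782 to 6674 against 494963 or more in either macrophage, and *Itgam*, *Fcgr1*, *Mrc1* and *Msr1* were not above background in any B cell array. The 7 B cell markers were all detected in B cells, where they summed to 277443 to 336543. Of these, 5 to 7 were detected in EPM, with a sum of 61632 to 66445 to which *Blnk* at 15.97 in untreated EPM gave the most. *Pax5* was above background in EPM with KLA for 12 h, at 6.36, and in no other EPM condition. In BMDM 5 or 6 of the 7 were detected, with a sum of 21326 to 29226. *Blnk* read 14.50 and *Cd79b* 11.69 in BMDM given DMSO for 1 h. The 6 T cell markers summed to 1515 to 3228 in B cells, with 3 or 4 detected and *Lck*, at 10.03 to 11.43, giving the most. They summed to 590 to 799 in EPM and 679 to 779 in BMDM. The sum of 6 neutrophil markers was higher with KLA than in the control. In BMDM it was 22211 against 14126 at 1 h and 20913 against 10321 at 12 h, most of it from *S100a9*. In EPM it was 1859 against 987 and 1306 against 992. At 12 h in EPM *S100a8* (9.73 against 9.10) and *Camp* (6.96 against 6.03) were higher with KLA. There *Ltf* (6.10 against 6.70) and *S100a9* (7.06 against 7.14) were lower, and *Ngp* and *Ela2* were not above background. The part of these markers in the member changes was not tested. In a mixed sample, fewer cells of a type and less RNA per cell cannot be told apart.

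The labels of 2 B cell arrays are in conflict. The authors also deposited a table of normalized values, and 20 of its 24 columns were closest to the scanner channel of the same label. The 4 columns of B cells labelled KLA 1 h and DMSO 12 h instead matched each other's channels, with correlations of 0.80 or more across probes against -0.69 or less with their own. The scanner files and their labels were used throughout, every B cell value below that uses either array depends on that choice. The KLA changes called in B cells are given with these 2 arrays exchanged as well.

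Before KLA, the 10 genes did not form 1 pattern across the cell types. Levels are compared here within a gene only. *Egr2*, an EGR factor with roles in macrophage and lymphocyte differentiation, was already high in EPM. Its channels read 12.84 and 12.98 in untreated EPM, 11.29 and 11.33 in untreated B cells, and 8.96 and 9.02 in BMDM given DMSO for 1 h. The 3 cell types did not overlap, and the excess of EPM over BMDM was 3.92 (SE 0.069, 15.2-fold, adjusted p = 1.35e-18) for the early controls and 4.43 (SE 0.069, 21.6-fold, adjusted p = 2.38e-19) for the 12 h controls. *Atf3* followed the order EPM, BMDM, B cells, with 15.05 and 14.95 in EPM, 14.30 and 14.29 in BMDM and 9.97 and 9.83 in B cells. The excess of EPM over BMDM was 0.70 (SE 0.059, adjusted p = 6.99e-09) early and 0.71 (SE 0.059, adjusted p = 5.72e-09) at 12 h.

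*Fos* had the opposite order between the macrophages. It read 10.46 and 10.16 in untreated EPM, 11.23 and 11.06 in BMDM and 7.05 and 7.01 in B cells, and EPM was lower than BMDM by a change of -0.83 (SE 0.115, adjusted p = 5.05e-06) early and -1.76 (SE 0.115, adjusted p = 1.69e-10) at 12 h. *Jun*, its main partner in AP-1, read 11.38 and 11.31 in EPM and 10.88 and 10.83 in BMDM, an excess of EPM of 0.49 (SE 0.058, adjusted p = 8.1e-07) early and 0.75 (SE 0.058, adjusted p = 2.02e-09) at 12 h, and lowest in B cells at 8.29 and 8.22. *Fosb* read 6.99 and 7.02 in EPM and 7.69 and 7.65 in BMDM, a difference of -0.67 (SE 0.058, adjusted p = 1.1e-08) early and -0.20 (SE 0.058, adjusted p = 0.00727) at 12 h, and untreated B cells lay between them at 7.47 and 7.53.

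The remaining early controls overlapped in part. *Egr1* read 9.49 and 9.24 in EPM and 9.39 and 9.28 in BMDM, and was higher in B cells at 10.64 and 10.34. *Egr3* read 6.57 and 6.43 in EPM, 6.49 and 6.52 in BMDM, and 9.36 and 9.35 in B cells, above both macrophages without overlap. The other *Egr3* probe averaged 6.42 in B cells, and 6.12 in EPM and 6.07 in BMDM, where it was not above background. The 2 macrophages overlapped for both genes, with an interval of the difference from -0.25 to 0.31 for *Egr1* and from -0.13 to 0.13 for *Egr3*. *Fosl2* overlapped in EPM (9.25 and 8.99) and BMDM (9.36 and 9.01) and was lower in B cells (6.54 and 6.44). The other *Fosl2* probe averaged 6.53 in EPM, 6.53 in BMDM and 6.38 in B cells. *Junb* was near the top of the intensity range everywhere. It read 14.30 and 14.61 in EPM, 14.81 and 14.82 in BMDM and 14.77 and 14.88 in B cells, the last 2 overlapping, and its EPM deficit of -0.36 (SE 0.132, adjusted p = 0.0255) lost its call without replicate 1 of untreated EPM (-0.20) or without either BMDM control channel (-0.37 and -0.36), and was -0.22 (adjusted p = 0.42) with the other *Junb* probe. *Jund* was highest in B cells at 15.83 and 15.88, against 14.10 and 13.95 in EPM and 13.58 and 13.72 in BMDM. Between EPM and BMDM early controls, 6 of the 9 genes were called, 3 in each direction, beside 57.8% of all genes, and at 12 h 7 were called, beside 56.9%, so that the count itself is close to the background.

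**Figure D1:**
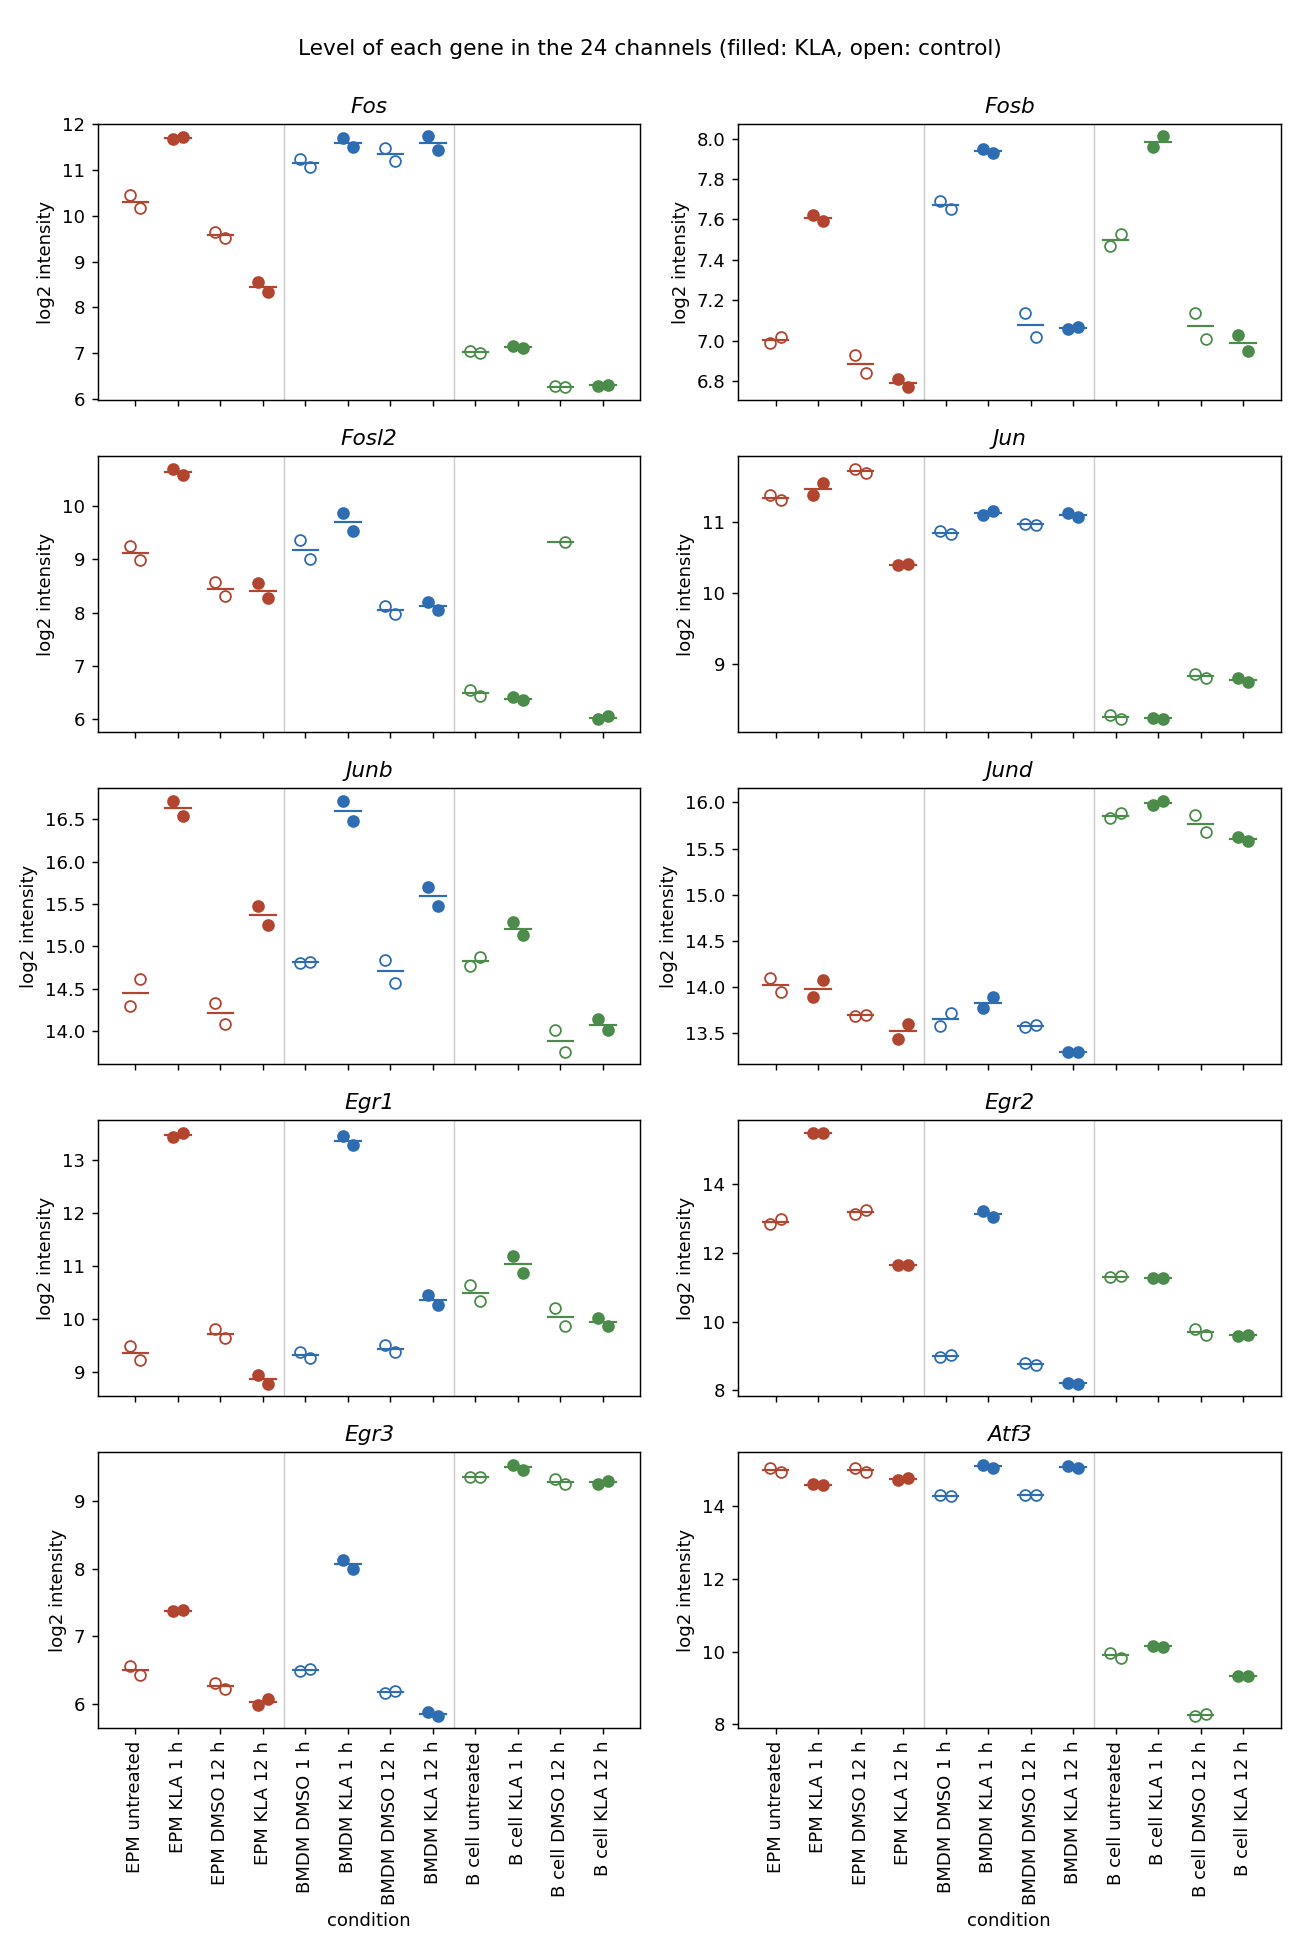
Log2 intensity (vertical axis, with its own range in each panel) of the 10 genes in the 12 conditions (horizontal axis), with a point for each channel, a line at the mean, filled points for KLA and open points for controls, and colours for EPM (red), BMDM (blue) and B cells (green). *Egr1* stands at 13.43 and 13.51 in EPM and 13.45 and 13.27 in BMDM after 1 h of KLA, while *Egr2* starts at 12.91 in EPM and 8.99 in BMDM.

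One hour of KLA raised most of the genes in both macrophages. In EPM 7 of the 9 genes rose and 1 fell, where 9.39% of all genes tested were called higher and 19.7% lower. In BMDM all 9 rose, where 11.0% of genes were called higher and 17.6% lower. *Junb*, *Egr1* and *Egr2* belong to the list of early KLA-induced genes that the study selected on expression in EPM at 1 h, so their rise in that comparison is not independent evidence of its direction.

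*Egr1*, the founding EGR factor, showed nearly the same response in the 2 macrophages. In EPM its channels went from 9.49 and 9.24 to 13.43 and 13.51, a change of 4.10 (SE 0.134, 17.2-fold, adjusted p = 3.28e-14). In BMDM they went from 9.39 and 9.28 to 13.45 and 13.27, a change of 4.03 (SE 0.134, 16.3-fold, adjusted p = 5.16e-14). It was the one gene of the 10 whose 1 h rise was also called from array means in both macrophages, at 3.92 (adjusted p = 0.00769) in EPM and 3.97 (adjusted p = 0.0118) in BMDM. *Egr2* rose from unequal starting points. In EPM it went from 12.84 and 12.98 to 15.51 in both channels, a change of 2.60 (SE 0.069, 6.06-fold, adjusted p = 1.59e-15), and in BMDM from 8.96 and 9.02 to 13.22 and 13.06, a change of 4.15 (SE 0.069, 17.8-fold, adjusted p = 2.38e-18). The induced BMDM channels lay just above those of untreated EPM. From array means its changes of 2.46 (adjusted p = 0.253) and 4.27 (adjusted p = 0.087) were not called. *Egr3*, a dim member of the same family, went from 6.57 and 6.43 to 7.37 and 7.39 in EPM, a change of 0.88 (SE 0.061, 1.84-fold, adjusted p = 2.81e-09), and from 6.49 and 6.52 to 8.13 and 8.00 in BMDM, a change of 1.56 (SE 0.061, 2.95-fold, adjusted p = 5.67e-13). From array means it was called in BMDM (1.72, adjusted p = 0.0416) and not in EPM (1.00, adjusted p = 0.13).

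*Junb*, the Jun family member with the largest 1 h change, rose from 14.30 and 14.61 to 16.72 and 16.54 in EPM and from 14.81 and 14.82 to 16.72 and 16.48 in BMDM. These are changes of 2.17 (SE 0.132, 4.50-fold, adjusted p = 3.66e-10) and 1.78 (SE 0.132, 3.43-fold, adjusted p = 6.09e-09), with adjusted p = 0.105 and 0.189 from array means. *Jun* read 11.39 and 11.55 against 11.38 and 11.31 in EPM, a difference of 0.12 (SE 0.058, adjusted p = 0.132, interval 0 to 0.24) that was called without replicate 1 of KLA (0.20, adjusted p = 0.0347). In BMDM it rose by 0.28 (SE 0.058, adjusted p = 0.00119), with 11.11 and 11.16 against 10.88 and 10.83. *Jund* was not called in either, at -0.04 (interval -0.20 to 0.12) in EPM and 0.17 (interval 0.01 to 0.33) in BMDM, where it was called on the authors' values (0.31, adjusted p = 0.0146) and without normalization between arrays (0.30, adjusted p = 0.00612).

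The Fos family rose in both macrophages, by more in EPM on the probes used. The other *Fosl2* probe gave 0.88 in EPM and 0.66 in BMDM, with no call for the difference between them. *Fos* went from 10.46 and 10.16 to 11.68 and 11.71 in EPM, a change of 1.38 (SE 0.115, 2.61-fold, adjusted p = 2.94e-08), and from 11.23 and 11.06 to 11.70 and 11.49 in BMDM, a change of 0.45 (SE 0.115, 1.36-fold, adjusted p = 0.00633). After KLA the channels of the 2 macrophages overlapped. *Fosl2*, which encodes Fra-2, rose by 1.53 (SE 0.133, 2.88-fold, adjusted p = 1.07e-07) in EPM and 0.52 (SE 0.133, 1.44-fold, adjusted p = 0.0066) in BMDM. *Fosb* was dim in all samples and rose by 0.61 (SE 0.058, adjusted p = 2.05e-07) in EPM and 0.27 (SE 0.058, adjusted p = 0.00158) in BMDM. The BMDM changes of *Fos* and *Fosl2* lost their calls without replicate 2 of the DMSO control, at 0.36 and 0.35, or without replicate 1 of KLA, at 0.34 and 0.35. From array means none of the 3 genes was called in either macrophage, with adjusted p from 0.22 to 0.982.

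*Atf3* moved in opposite directions. In EPM it fell from 15.05 and 14.95 to 14.62 and 14.58, a change of -0.40 (SE 0.059, adjusted p = 4.22e-05). In BMDM it rose from 14.30 and 14.29 to 15.15 and 15.07, a change of 0.82 (SE 0.059, 1.77-fold, adjusted p = 4.03e-09). The induced BMDM channels lay just above those of untreated EPM, and those of KLA-treated EPM below it. On the authors' normalized values the EPM change was -0.14 (adjusted p = 0.182), and from array means neither change was called (adjusted p = 1 in EPM and 0.892 in BMDM).

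**Figure D2:**
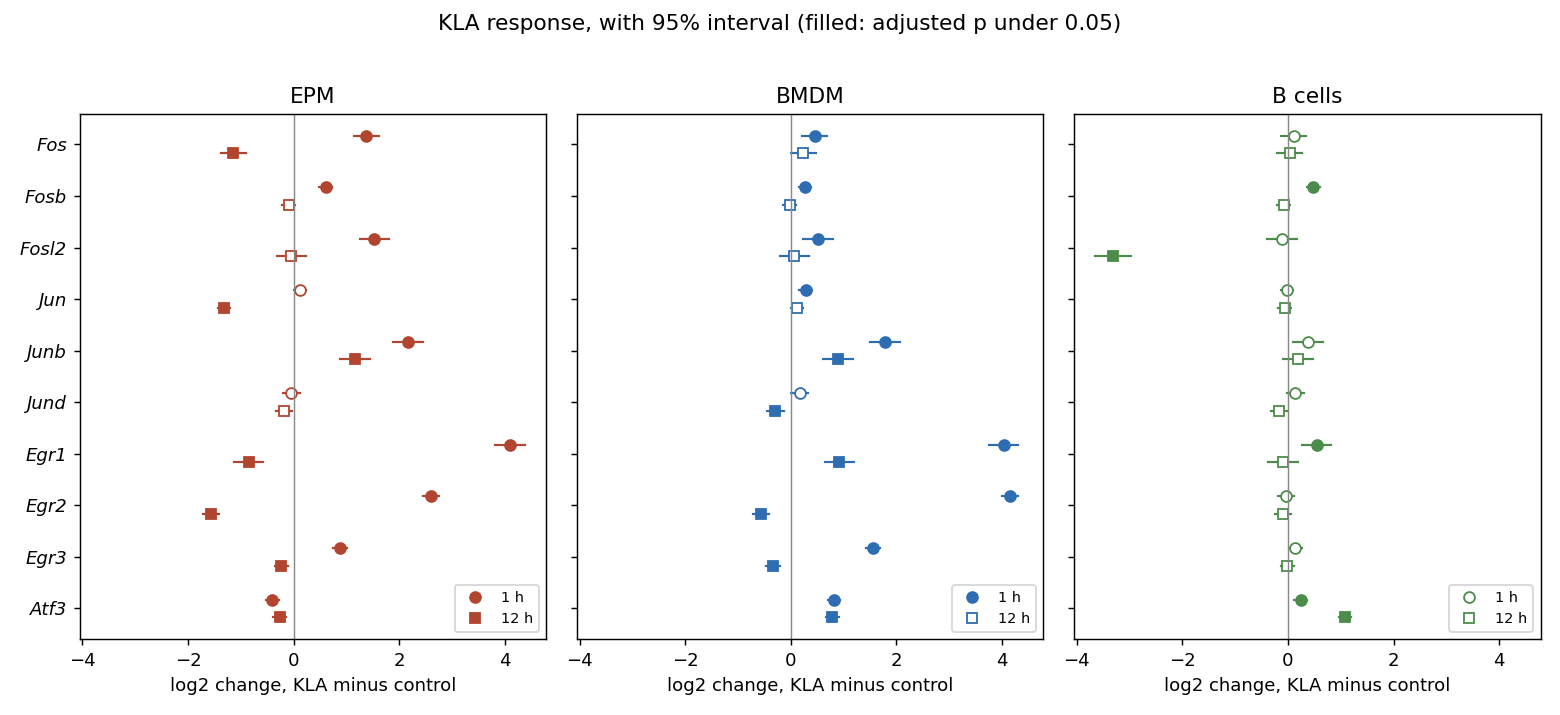
Log2 change of KLA minus control (horizontal axis) for the 10 genes (vertical axis) in EPM, BMDM and B cells, with circles for 1 h, squares for 12 h, bars for the 95% interval of the fit and filled symbols where the adjusted p is below 0.05. *Egr1* sits at 4.10 in EPM and 4.03 in BMDM at 1 h, and most of the B cell symbols lie near 0, with *Fosl2* at 12 h (-3.31) resting on 1 control channel.

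At 12 h most of the genes in EPM were below their control. Of the 9, 6 were lower with KLA than with DMSO and 1 was higher, where 34.3% of all genes tested were called lower and 19.6% higher. In BMDM 3 were higher and 2 lower, where 28.6% of genes were called higher and 36.3% lower, so that the BMDM counts are close to the background.

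*Junb* was the gene that stayed up in both macrophages. It read 15.48 and 15.25 against 14.33 and 14.09 in EPM, a change of 1.16 (SE 0.132, 2.23-fold, adjusted p = 4.98e-07), and 15.70 and 15.48 against 14.84 and 14.57 in BMDM, a change of 0.89 (SE 0.132, 1.85-fold, adjusted p = 9.08e-06). *Egr2* was below its control in both. It read 11.64 and 11.65 against 13.15 and 13.25 in EPM, a change of -1.56 (SE 0.069, adjusted p = 7.83e-13), and 8.22 and 8.19 against 8.80 and 8.73 in BMDM, a change of -0.56 (SE 0.069, adjusted p = 1.01e-06). *Egr3* was also lower, by -0.23 (adjusted p = 0.00417) and -0.33 (adjusted p = 0.00013). It was not well above background with KLA in either macrophage, so no fold is given. The EPM call was lost without replicate 1 of DMSO or replicate 1 of KLA, at -0.18 in each case. In BMDM the DMSO control was well above background in 1 of its 2 channels, and the call was lost on the authors' values (-0.19, adjusted p = 0.169). The other *Egr3* probe gave -0.10 in both (adjusted p = 0.375 in EPM and 0.35 in BMDM).

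*Egr1*, *Fos* and *Jun* fell in EPM at 12 h and were not lower in BMDM. *Egr1* read 8.96 and 8.79 against 9.82 and 9.64 in EPM, a change of -0.85 (SE 0.134, adjusted p = 2.6e-05), and 10.46 and 10.27 against 9.51 and 9.38 in BMDM, a change of 0.92 (SE 0.134, 1.89-fold, adjusted p = 7.87e-06). *Fos* read 8.55 and 8.34 against 9.65 and 9.52 in EPM, a change of -1.14 (SE 0.115, adjusted p = 9.81e-08). In BMDM it read 11.73 and 11.43 against 11.48 and 11.20, an overlapping pair with a difference of 0.24 (interval 0 to 0.48, adjusted p = 0.0761, and 0.00741 with the replicate block), which was also called without replicate 1 of DMSO (0.38) or replicate 2 of KLA (0.39). *Jun* read 10.40 and 10.41 against 11.76 and 11.69 in EPM, a change of -1.32 (SE 0.058, adjusted p = 6.06e-13), and differed by 0.12 (interval 0 to 0.24, adjusted p = 0.0697) in BMDM.

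*Atf3* kept its opposite directions, with -0.26 (SE 0.059, adjusted p = 0.00113) in EPM and 0.79 (SE 0.059, 1.73-fold, adjusted p = 9.99e-10) in BMDM. The EPM difference was 0.05 (adjusted p = 0.481) without normalization between arrays and -0.03 (adjusted p = 0.768) on the authors' values. *Fosb* and *Fosl2* were not called at 12 h, with -0.09 and -0.04 in EPM and -0.02 and 0.07 in BMDM, but *Fosb* in BMDM was called without normalization between arrays (-0.21, adjusted p = 0.00362). *Jund* fell in BMDM by a change of -0.29 (SE 0.078, adjusted p = 0.00368), with 0.06 (adjusted p = 0.612) on the authors' values, and differed by -0.18 (adjusted p = 0.063, and 0.0361 with the replicate block) in EPM, where it was called without replicate 2 of KLA (-0.26). From array means, *Egr1* in BMDM (0.97, adjusted p = 0.0487) was the only call among the members at 12 h. In EPM its smallest adjusted p was 0.0716, for *Jun*.

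The difference between the 2 macrophages was tested as the EPM response minus the BMDM response. At 1 h 6 of the 9 genes were called, 3 in each direction, where 9.56% of all genes tested were called. On the probes used, the Fos family responded more in EPM, by 0.93 (SE 0.162, adjusted p = 0.000698) for *Fos*, 1.00 (SE 0.189, adjusted p = 0.00174) for *Fosl2* and 0.34 (SE 0.082, adjusted p = 0.0118) for *Fosb*. The *Fosl2* difference was not called with its other probe (0.23, adjusted p = 0.159) or with the mean of both probes (0.62, adjusted p = 0.398). The *Fosb* call was lost at a threshold of 0.01. *Egr2* (-1.56, SE 0.098, adjusted p = 3.68e-09), *Egr3* (-0.68, SE 0.087, adjusted p = 2.39e-05) and *Atf3* (-1.22, SE 0.083, adjusted p = 1.08e-08) responded more in BMDM. For *Egr3* the call was lost on the scanner's processed signal (-1.02, adjusted p = 0.0937). For *Egr1* the difference was 0.08 with an interval of -0.32 to 0.48, and for *Junb* 0.39 with an interval of 0 to 0.78. At 12 h 5 genes were called, all lower in EPM, where 47.8% of genes were called in either direction. They were *Egr1* (-1.77, SE 0.19, adjusted p = 4.45e-07), *Jun* (-1.44, SE 0.082, adjusted p = 1.09e-10), *Fos* (-1.38, SE 0.162, adjusted p = 1.39e-06), *Atf3* (-1.05, SE 0.083, adjusted p = 9.65e-09) and *Egr2* (-1.0, SE 0.098, adjusted p = 1.58e-07). The early controls differ in handling, untreated in EPM and DMSO in BMDM, and that cannot be told apart from the cell type at 1 h. From array means no member difference was called at either time.

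**Figure D3:**
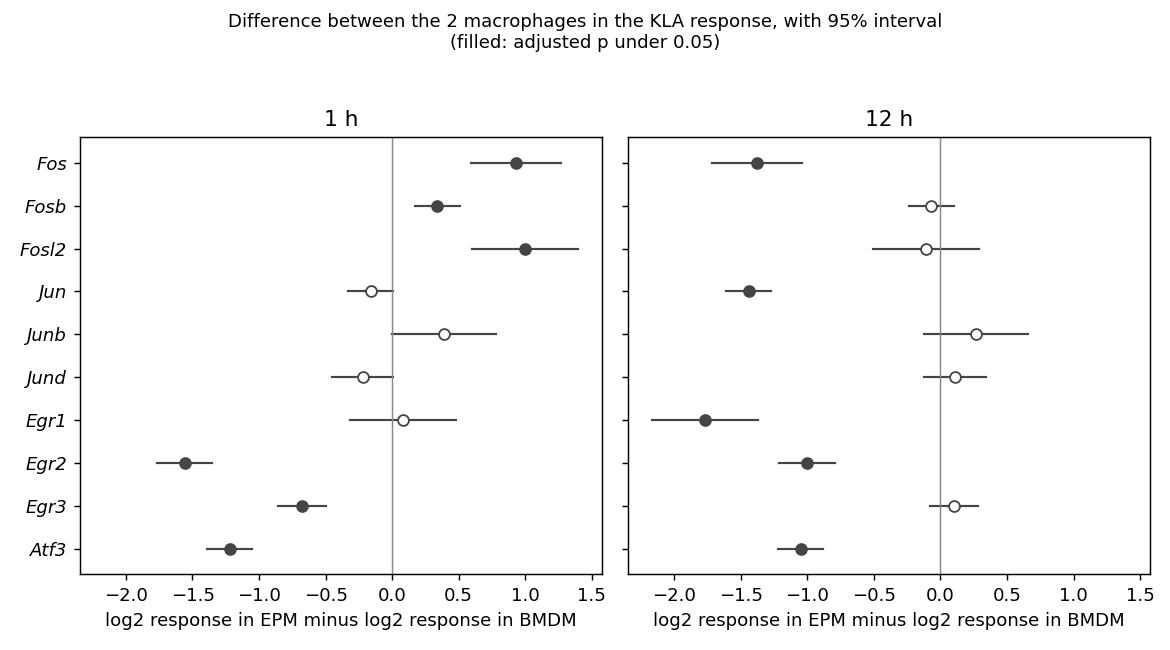
Log2 KLA response in EPM minus that in BMDM (horizontal axis) for the 10 genes (vertical axis) at 1 h and 12 h, with bars for the 95% interval and filled symbols where the adjusted p is below 0.05. *Fos* changes sides between the times, from 0.93 to -1.38, while *Egr2* (-1.56 and -1.0) and *Atf3* (-1.22 and -1.05) lie to the left at both.

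The controls themselves moved over time, which bears on any reading of the 12 h levels. In EPM, where untreated cells are set against DMSO for 12 h, 5 of the 9 genes were called, beside 19.1% of all genes. *Fos* was lower by a change of -0.73 (SE 0.115, adjusted p = 0.000151) and *Fosl2* by -0.67 (SE 0.133, adjusted p = 0.00151), while *Jun* was higher by 0.38 (SE 0.058, adjusted p = 0.000113). In BMDM, where both controls had DMSO, 4 were called, all lower, beside 23.2% of all genes, with *Fosl2* at -1.13 (SE 0.133, adjusted p = 8.21e-06) and *Fosb* at -0.59 (SE 0.058, adjusted p = 6.24e-07). *Atf3* differed by 0.02 in EPM (interval -0.10 to 0.14) and by 0.01 in BMDM (interval -0.11 to 0.13). *Egr1* differed by 0.36 (adjusted p = 0.0689, and 0.000443 with the replicate block) in EPM and by 0.11 (adjusted p = 0.627) in BMDM. With the mean of both probes the *Fosl2* differences were -0.40 (adjusted p = 0.375) and -0.64 (adjusted p = 0.119). With the other *Fosl2* probe they were -0.13 and -0.14, neither called. *Junb* was not called on the probe used, but its other probe was lower at 12 h. That probe differed by -0.76 (adjusted p = 0.018) in EPM and -0.88 (adjusted p = 0.00587) in BMDM.

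In B cells few of the genes changed. At 1 h 3 of the 9 genes were higher and none lower, where 2.72% of all genes tested were called higher and 2.45% lower. *Fosb* rose from 7.47 and 7.53 to 7.96 and 8.01, a change of 0.48 (SE 0.058, 1.40-fold, adjusted p = 2.8e-05). *Egr1* rose from 10.64 and 10.34 to 11.19 and 10.87, a change of 0.54 (SE 0.134, 1.45-fold, adjusted p = 0.0243), and *Atf3* from 9.97 and 9.83 to 10.15 and 10.14, a change of 0.24 (SE 0.059, 1.18-fold, adjusted p = 0.0207). The calls of *Egr1* and *Atf3* were lost without replicate 1 of KLA or replicate 2 of the control, at 0.38 and 0.39 for *Egr1* and 0.24 and 0.17 for *Atf3*, and *Atf3* also without replicate 2 of KLA, at 0.25. *Junb* differed by 0.38 (interval 0.10 to 0.66, adjusted p = 0.11, and 0.0131 with the replicate block), *Egr2* by -0.04 (interval -0.19 to 0.11) and *Fos* by 0.11 (interval -0.13 to 0.35).

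At 12 h *Atf3* was the 1 gene called higher in B cells and *Fosl2* the 1 called lower, where 2.81% of all genes were called higher and 2.48% lower. *Atf3* read 9.34 in both KLA channels against 8.24 and 8.28 with DMSO, a change of 1.08 (SE 0.059, 2.11-fold, adjusted p = 3.88e-10). Its DMSO control at 12 h was itself below the untreated cells, by -1.64 (SE 0.059, adjusted p = 2.29e-13), so that the KLA channels did not reach the untreated level. *Fosl2* read 5.99 and 6.06 with KLA, not well above background, against 9.33 in the 1 DMSO channel that was kept. The other spot was flagged as an outlier by the scanner, so the control has no spread of its own and no fold is given. With the mean of both probes the difference was -0.93 (adjusted p = 0.0601) and not called. The other *Fosl2* probe read 6.27 and 6.30 against 6.32 and 6.36, a difference of -0.06 (adjusted p = 0.762). Between the 2 B cell controls 8 of the 9 genes were called, 2 higher and 6 lower at 12 h, beside 47.4% of all genes, with *Egr2* at -1.61 (SE 0.069, adjusted p = 2.31e-12).

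With the 2 conflicting arrays exchanged, the B cell picture was different. At 1 h 8 genes were called in place of 3, 2 higher and 6 lower, where 47.4% of all genes were called in either direction. The 2 higher were *Fosl2* at 2.84 (adjusted p = 2.18e-10), again resting on 1 channel, and *Jun* at 0.58 (adjusted p = 1.3e-07), and the lower ones included *Atf3* at -1.64 (adjusted p = 2.29e-13), *Egr2* at -1.61 (adjusted p = 2.31e-12), *Junb* at -0.94 (adjusted p = 8.78e-06), *Egr1* at -0.45 (adjusted p = 0.0102) and *Fosb* at -0.43 (adjusted p = 6.14e-06). At 12 h all 9 were called, where 49.1% of all genes were called, with *Atf3* at -0.81 (adjusted p = 2.74e-09) and *Fosl2* at -0.36 (adjusted p = 0.0337). Between the controls 3 were called, where 5.17% of all genes were, and *Egr2* differed by -0.04 (adjusted p = 0.836). No B cell direction of *Fosb*, *Egr1* or *Atf3* at 1 h, or of *Atf3* at 12 h, therefore holds under both readings. The summed macrophage markers were 2782 and 3142 in B cells labelled untreated and KLA 1 h, and 6674 and 5938 in those labelled DMSO 12 h and KLA 12 h, with *Emr1*, the array name of *Adgre1*, at 7.52 and 7.44 against 10.88 and 10.61. Their part in the B cell values was not tested. From array means no member was called in B cells at either time, beside 0.0807% and 0.00576% of all genes. In that fit the 2 B cell controls, which differed for 47.4% of genes as labelled, stand as replicates. Their differences enter its spread, so a missing call there says little about a member.

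**Figure D4:**
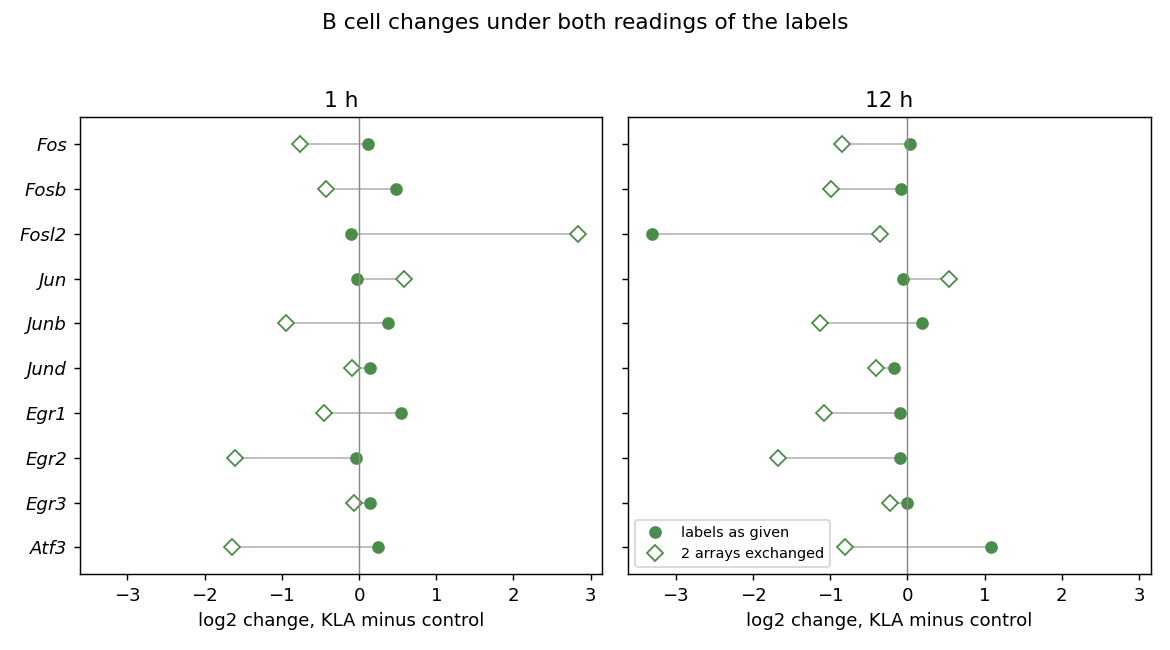
Log2 change of KLA minus control (horizontal axis) in B cells for the 10 genes (vertical axis) at 1 h and 12 h, with filled circles for the labels as given and open diamonds for the arrays labelled KLA 1 h and DMSO 12 h exchanged. The pairs lie on opposite sides of 0 for *Atf3* (0.24 and -1.64 at 1 h, 1.08 and -0.81 at 12 h).

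For 3 genes a second probe allowed a check within the array. The probes of a gene are 60 bases long, and the one with the higher mean was used. For *Junb*, with probes at chr8:87867087-87867146 and chr8:87867049-87867108 on mm8, the second gave 1.99 and 1.78 at 1 h in EPM and BMDM and 1.48 and 1.85 at 12 h, all called. For *Fosl2*, with probes at chr5:32433832-32433891 and chr5:32429296-32429355, the dimmer second probe gave 0.88 (adjusted p = 8.85e-09) in EPM and 0.66 (adjusted p = 5.13e-07) in BMDM at 1 h, with no call for the difference between them (0.23, adjusted p = 0.159). At 12 h it was higher with KLA in both, by 0.23 (adjusted p = 0.0069) and 0.79 (adjusted p = 6.48e-09), where the brighter probe was not called. For *Egr3* the probe used, at chr14:68817252-68817311, is annotated to a cDNA clone and was well above background in 19 of 24 channels. The probe to the RefSeq transcript, at chr14:68814100-68814159, was above background in B cells only, 8 of 24 channels, and gave -0.05 (adjusted p = 0.72) in EPM and 0.06 (adjusted p = 0.643) in BMDM at 1 h. The *Egr3* rise thus rests on 1 of 2 probes.

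**Figure D5:**
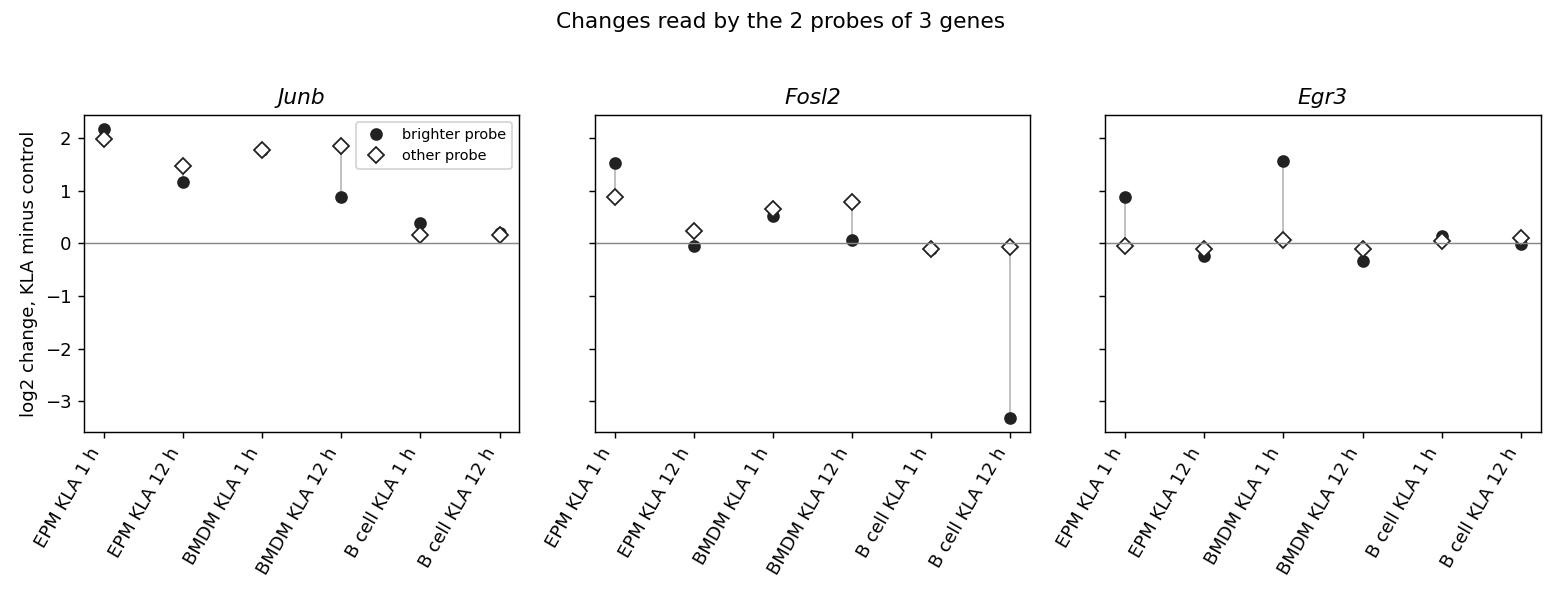
Log2 change of KLA minus control (vertical axis) in the 6 comparisons (horizontal axis) for *Junb*, *Fosl2* and *Egr3*, with filled circles for the brighter probe and open diamonds for the other. The *Junb* probes stay on the same side of 0 throughout, the *Egr3* probes part at 1 h (1.56 and 0.06 in BMDM), and the *Fosl2* probes part in B cells at 12 h (-3.31 and -0.06).

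The other genes had 1 probe each on mm8. *Fos* (chr12:86366053-86366112), *Jun* (chr4:94541191-94541250) and *Egr2* (chr10:66937367-66937426) were printed in 10 spots per array, with a standard deviation between spots of at most 0.110, 0.131 and 0.212 on the log2 scale. *Fosb* (chr7:18461650-18461709), *Atf3* (chr1:192871283-192871342) and *Jund* (chr8:73629526-73629585) had 1 spot, as did *Egr1* on chromosome 18.

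The wider leucine zipper network was followed in a list of 17 possible partners, of which 16 were tested. At 1 h 7 rose and 2 fell in EPM, with a median of 0.06 against -0.05 over all genes. In BMDM 7 rose and 2 fell, with a median of 0.11 against -0.03. Of all genes, 9.39% were called higher and 19.7% lower in EPM, and 11.0% and 17.6% in BMDM. *Maff*, a small Maf protein that pairs with zipper factors, changed most, by 3.49 (SE 0.069, adjusted p = 2.22e-17) in EPM and 3.53 (SE 0.069, adjusted p = 2.19e-17) in BMDM. *Fosl1*, which encodes Fra-1, rose by 0.85 (adjusted p = 1.63e-08) in EPM, and *Jundm2*, the array name of *Jdp2*, by 1.72 (adjusted p = 5.96e-10) in BMDM. At 12 h 9 of the 16 were higher and 5 lower in EPM, and 8 higher and 3 lower in BMDM, with medians of 0.38 and 0.46. The shares of all genes called at 12 h were 19.6% higher and 34.3% lower in EPM and 28.6% higher and 36.3% lower in BMDM. The count of lower genes is thus close to the background in EPM and below it in BMDM. *Batf2*, a partner of Jun proteins, changed most, by 4.69 (SE 0.11, adjusted p = 5.3e-17) in EPM and 4.57 (SE 0.11, adjusted p = 8.53e-17) in BMDM. *Batf* rose in BMDM by 1.79 (SE 0.085, adjusted p = 1.33e-12). Some further genes are named here after their values were seen. At 1 h *Crem* fell in EPM (-0.52) and *Maf* in BMDM (-0.32). At 12 h *Atf5* and *Creb1* were lower in both macrophages, and *Atf6* and *Maf* in EPM. In B cells, under the labels as given, *Maff* (0.37, adjusted p = 0.00294) was called at 1 h, and *Batf* (1.04, adjusted p = 9.65e-08), *Jundm2* (0.65), *Atf5* (0.50) and *Maff* (0.32) were higher at 12 h. With the 2 B cell arrays exchanged these values were -1.48 for *Maff* at 1 h, and 2.04 for *Batf*, -0.01 for *Jundm2*, 0.98 for *Atf5* and -1.53 for *Maff* at 12 h.

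Of 11 tested genes of the circuit around SRF and EGR factors, 7 rose and 2 fell at 1 h in EPM, with a median of 0.70. In BMDM 4 rose and 2 fell, with a median of 0.14. Of all genes, 9.39% were called higher and 19.7% lower in EPM, and 11.0% and 17.6% in BMDM. The counts of lower genes are thus close to the background. The immediate-early genes *Ier3* and *Ier2* changed most, *Ier3* by 2.16 (SE 0.097, adjusted p = 3.97e-12) in EPM and 2.37 (SE 0.097, adjusted p = 9.97e-13) in BMDM, and *Ier2* by 1.61 (SE 0.105, adjusted p = 1.11e-09) and 2.32 (SE 0.105, adjusted p = 4.75e-12). At 12 h 4 were higher and 5 lower in EPM, where 19.6% and 34.3% of all genes were, and 5 higher and 2 lower in BMDM, where 28.6% and 36.3% were. *Ier3* was still higher, by 2.08 (adjusted p = 1.44e-12) and 1.81 (adjusted p = 7.76e-12). *Mkl1*, a coactivator of SRF, changed by -1.24 in EPM (SE 0.071, adjusted p = 3.35e-11), and *Nab1*, a corepressor of EGR factors, rose in BMDM by 0.86 (SE 0.151, adjusted p = 6.39e-05). *Elk4* and *Nab2*, named after their values were seen, were the 2 that fell at 1 h in both macrophages, by -0.21 and -0.71 in EPM and -0.28 and -0.40 in BMDM. In B cells, under the labels as given, *Egr4* rose (0.31, adjusted p = 0.00458) and *Elk4* fell (-0.22, adjusted p = 0.0209) at 1 h, with -0.09 and -0.28 after the exchange, and none was called at 12 h.

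Of 15 upstream MAP kinase genes, 4 rose and 3 fell at 1 h in EPM, with a median of 0.08. In BMDM 3 rose and 3 fell, with a median of -0.04. The shares of all genes were 9.39% higher and 19.7% lower in EPM and 11.0% and 17.6% in BMDM. The counts of lower genes are thus close to the background. *Map3k8*, the kinase that links TLR4 to ERK, rose by 0.97 (SE 0.138, adjusted p = 2.73e-05) in EPM and 0.60 (SE 0.138, adjusted p = 0.00279) in BMDM, and *Mapkapk2*, a target of p38, by 0.87 (SE 0.165, adjusted p = 0.000503) and 0.82 (SE 0.165, adjusted p = 0.00094). At 12 h 7 were higher and 4 lower in each macrophage. Of all genes, 19.6% were higher and 34.3% lower in EPM, and 28.6% and 36.3% in BMDM, so the lower counts are not above the background. *Map2k1*, which encodes MEK1, was higher by 1.71 (SE 0.072, adjusted p = 3.46e-13) in EPM and 1.39 (SE 0.072, adjusted p = 5.08e-12) in BMDM. The 3 that fell at 1 h, named after their values were seen, were *Map2k1* (-0.24), *Map2k7* (-0.37) and *Mapk3* (-0.34) in EPM and *Map2k1* (-0.23), *Map2k7* (-0.38) and *Mapk14* (-0.29) in BMDM, so that *Map2k1* was lower at 1 h and higher at 12 h in both. Under the labels as given, none of the 15 was called by limma in B cells at either time. With the 2 B cell arrays exchanged, the 1 h comparison becomes the one labelled DMSO 12 h against untreated. There 4 of the 15 were higher and 6 lower, beside 47.4% of all genes called in either direction.

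As a description of likeness, the 8 macrophage condition means of each gene were centred on their cell type and correlated with those of every other tested gene. The 8 points share their slides and controls. *Egr2* and *Egr3* were alike (r = 0.98), as were *Fosb* and *Fosl2* (r = 0.97) and *Egr1* and *Egr2* (r = 0.92), while *Atf3* had r of 0.31 or less with all 8 other members. Among genes outside the set, those most like *Egr1* were *E2f4* (r = 0.994) and BC022623 (r = 0.989), those most like *Fosl2* were *Zswim6* (r = 0.990) and *Nr4a1* (r = 0.986), and those most like *Egr3* were *Dcun1d5* (r = 0.997) and *Egr4* (r = 0.988). For *Fos* they were *Atp7a* (r = 0.986) and *Taok3* (r = 0.979), for *Jun* *Kcnj8* (r = 0.987) and *Ttc8* (r = 0.983), for *Junb* 3010026O09Rik (r = 0.993) and *Trim13* (r = 0.992), for *Egr2* *Itga2* and *Dscr1* (both r = 0.981), for *Fosb* *Zswim6* (r = 0.977) and *Pctk2* (r = 0.969), for *Jund* *Rap1a* (r = 0.985) and *Capsl* (r = 0.982), and for *Atf3* *Olfr62* (r = 0.983) and *Per2* (r = 0.964).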

How the data were processed

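The authors deposited Agilent scanner files (Feature Extraction 9.5.3.1) that hold each spot's mean intensity and median background in both dyes. They also deposited a table of normalized intensity values, whose normalization is not given in the sources used here. The dye named in a sample's label gave its channel. The array design gives probe positions on mm8.

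From these, background was corrected with normexp (offset 50). After removal of control spots, each array was normalized by loess and arrays were brought to 1 distribution of average intensity (Aquantile), and log2 values were taken per channel. Outlier spots were set missing and the spots of a probe averaged. Of 41174 probes, 34850 carried 1 of 21597 symbols, and the probe with the highest mean stood for each gene. Detection, that is signal well above background, was required of that probe in both replicates of some condition, which left 17347 genes. Linear models with a mean for each condition were fitted in limma 3.58.1 (R 4.3.3, with statmod 1.5.0 and the data table package, version 1.17.8), leaving 12 residual degrees of freedom. Precision is limited by how far a signal lies over background and by the small number of arrays. Where a group was below background, the fold is a bound, set in each channel by the lowest detected signal (5.44 to 6.16 on the log2 scale) or the probe's own value if that was higher.

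The members, the gene lists and the tests were chosen with earlier results of these data known. The genes named are the members, in each of the pathway lists the 2 genes with the largest called change per macrophage comparison, and the 2 genes most like each member. One gene that this rule names is not reported here.

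Replicates are named by their dye, the same in every condition. For each of the 66 array pairs, the gene-wise difference of Cy5 from Cy3 correlated (r of 0.27 to 0.63). As each replicate has its own dye throughout, a pairing of replicates and an effect of the dye cannot be told apart. The models were also fitted with the dye as a block, named the replicate block here. Alternatives were another offset, the scanner's processed signal, other normalizations, the authors' values, other detection filters, the mean of probes, fits within 1 cell type, array means, a threshold of 0.01, each channel left out and the 2 B cell arrays exchanged.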

Additional observations from a re-analysis of the deposited data

Results flagged for a closer look

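The KLA response differed between EPM and BMDM, by the test of the difference itself, for 6 of 9 genes at 1 h, beside 9.56% of all genes, and 5 of 9 at 12 h, close to the 47.8% of all genes called there. At 1 h the EPM response exceeded the BMDM response by 0.93 for *Fos*, 0.34 for *Fosb* and 1.00 for *Fosl2*, and the difference was -1.56 for *Egr2*, -0.68 for *Egr3* and -1.22 for *Atf3*. At 12 h it was -1.38 for *Fos*, -1.44 for *Jun*, -1.77 for *Egr1*, -1.0 for *Egr2* and -1.05 for *Atf3*. In the main fit *Atf3* moved in opposite directions in the 2 macrophages at both times (-0.40 and 0.82 at 1 h, -0.26 and 0.79 at 12 h), and *Egr1* did so at 12 h (-0.85 and 0.92). On the authors' values the *Atf3* change in EPM was not called (-0.14, adjusted p = 0.182 at 1 h, and -0.03, adjusted p = 0.768 at 12 h). Without normalization between arrays it was 0.05 at 12 h. The *Atf3* difference itself stayed called on the authors' values (-1.11 and -1.20). From array means no member difference was called. The *Fosl2* difference at 1 h was 0.23 (adjusted p = 0.159) with its other probe, the *Egr3* difference -0.12 (adjusted p = 0.657) with its other probe, and the *Fosb* difference lost its call without replicate 1 of BMDM DMSO 1 h or replicate 1 of EPM KLA 1 h (0.32 in each). With 2 channels per condition, no group was large enough to look for single outlying samples.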

How the results depend on the processing

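The offset of 16, quantile normalization over channels and the fit without a detection filter changed no call or direction of any member. The replicate block moved no count of members called by more than 1.5 times and gave 6 further calls. In B cells at 1 h, 3 members were called, and 1 was called without normalization between arrays, within 1 cell type or at a threshold of 0.01, while the mean of probes gave 1 at 12 h in place of 2. From array means, which compare each KLA array with both control arrays of its cell type on 3 residual degrees of freedom, the counts of members called were 1 (EPM, 1 h), 0 (EPM, 12 h), 2 (BMDM, 1 h), 1 (BMDM, 12 h), 0 and 0 (B cells) and 0 and 0 (EPM against BMDM), beside 0.951%, 11.6%, 0.571%, 21.1%, 0.0807%, 0.00576%, 0.00% and 0.617% of all genes. With detection required in all channels, 6 members were left, with 5 called in EPM at 1 h, 1 in B cells at 12 h, 3 between the macrophage responses at 1 h and 2 between the controls of EPM and of BMDM. The authors' table holds 6 members, of which 5 were called in EPM at 1 h, 3 at 12 h, 3 in BMDM at 12 h, 5 in B cells at each time, 2 between the macrophage responses at 12 h, 1 and 2 between the controls of EPM and of B cells, and 3 and 4 between EPM and BMDM controls early and at 12 h. With the B cell arrays exchanged the counts were 8 at 1 h, 9 at 12 h and 3 between the controls, beside 47.4%, 49.1% and 5.17% of all genes. The B cell counts from the authors' table carry the same label conflict.

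Some directions reversed. Without normalization between arrays *Atf3* in EPM at 12 h was 0.05. On the authors' values *Jund* in BMDM at 12 h was 0.06, and the B cell changes were -0.37 (*Fosb*), 2.99 (*Fosl2*), -1.09 (*Junb*), -0.38 (*Egr1*) and -1.59 (*Atf3*) at 1 h, -1.33 (*Junb*) and -0.65 (*Atf3*) at 12 h, and 0.49 (*Fosb*), -0.11 (*Fosl2*), 0.39 (*Junb*), 0.58 (*Egr1*) and 0.18 (*Atf3*) between controls. With the arrays exchanged they were -0.76 (*Fos*), -0.43 (*Fosb*), 2.84 (*Fosl2*), 0.58 (*Jun*), -0.94 (*Junb*), -0.45 (*Egr1*) and -1.64 (*Atf3*) at 1 h, -0.84 (*Fos*), 0.54 (*Jun*), -1.13 (*Junb*) and -0.81 (*Atf3*) at 12 h, and 0.11 (*Fos*), 0.48 (*Fosb*), -0.11 (*Fosl2*), -0.02 (*Jun*), 0.38 (*Junb*), 0.54 (*Egr1*) and 0.24 (*Atf3*) between controls. The other probes gave 0.23 (*Fosl2*, EPM 12 h), -0.04 (*Fosl2*, B cell controls), -0.05 (*Egr3*, EPM 1 h), 0.07 (*Egr3*, EPM controls) and 0.01 (*Egr3*, BMDM controls). The authors' columns of B cells labelled KLA 1 h and DMSO 12 h match each other's scanner channels. The B cell values on the authors' table and those with the arrays exchanged are therefore not independent of each other. The cause was not tested, beyond the labels and probes named.

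Leaving out 1 channel gave 8 to 9 members called in EPM at 1 h and 6 to 7 at 12 h, 7 to 9 and 5 to 6 in BMDM, 1 to 3 and 1 to 2 in B cells, 5 to 6 and 5 to 5 between the macrophage responses, 3 to 5, 3 to 4 and 6 to 8 between the controls of EPM, BMDM and B cells, and 5 to 6 at each time between EPM and BMDM controls. Centred on the median of all genes, 4 EPM differences at 12 h moved by more than the spread between channels, *Jun* to -1.26, *Atf3* to -0.20, *Egr3* to -0.17 and *Fosb* to -0.03.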
